A study of Homo sapiens with 18 samples.

Results

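The tRNA synthetase genes measured here were 40 of the 58870 genes listed in the table of counts. They were taken by symbol, as aminoacyl-tRNA synthetases named for 1 amino acid with or without the suffix 2, with EPRS, FARSA, FARSB and the scaffold genes AIMP1, AIMP2 and EEF1E1, where the mean raw count over the 18 libraries was at least 10. Of the 40 genes, 23 were cytosolic (20 synthetase genes and the 3 scaffold genes) and 17 were mitochondrial, and all 40 were among the 17962 genes that passed the filter on low counts and were tested. Symbols are given as the table has them, so AARS, SARS, WARS and the other cytosolic genes carry older names than the current AARS1, SARS1 and WARS1.

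Aminoacyl-tRNA synthetases join each amino acid to its own tRNA and so supply the ribosome with charged tRNA. Cytosol and mitochondria mostly use enzymes from separate nuclear genes, whereas GARS and KARS each serve both compartments. In animal cells several of the cytosolic enzymes sit with AIMP1, AIMP2 and EEF1E1 in a multi-synthetase complex, and the transcription factor ATF4 raises many of the cytosolic genes when amino acids run short. NRF1 (nuclear respiratory factor 1) acts on GC-rich elements in promoters, including those of many nuclear genes for mitochondrial proteins.

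RNA was measured by bulk RNA-Seq in HEK293 Flp-In cells, derived from human embryonic kidney and built to take a transgene at 1 chosen genomic site, in 6 conditions of 3 libraries each. Cells received an siRNA against NRF1 (siNRF1) or a non-targeting siRNA (siNT), and doxycycline. They carried an siRNA-resistant transgene for NRF1 without exon 7 (NRF1-ΔE7), one for full-length NRF1 (NRF1-FL), or, in the conditions labelled siNRF1 and siNT alone, no NRF1 transgene by their labels. The comparisons ask how these genes differ between siNRF1 and siNT with and without each transgene, and whether the isoform lines differ under siNRF1. A single siRNA against NRF1 was used, so loss of endogenous NRF1 and any other effect of that siRNA cannot be told apart. Each transgene was in a separately selected line, so line and transgene cannot be told apart, and counts for NRF1 pool the endogenous gene and the transgene. Nothing in the labels says that replicates were separate cultures, so the p-values speak only of how these libraries spread, which may be technical. A lower level in such bulk samples can be less RNA per cell or fewer cells with the RNA, which cannot be told apart.

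Library totals ran from 31.2 M to 44.8 M counts, and the lowest count of any member in any library was 369 (FARS2). TMM scaling factors were 1.04 to 1.07 in the siNRF1 libraries of the 3 lines and 0.944 to 0.957 in the siNT libraries. Genes of mitochondrial DNA took 1.19% to 1.41% of counts with siNRF1 and 0.767% to 0.816% with siNT in the NRF1-ΔE7 line, 1.43% to 1.66% with siNRF1 and 0.818% to 0.944% with siNT in the NRF1-FL line, and 1.28% to 1.60% with siNRF1 and 0.966% to 0.975% with siNT without a transgene. The part of these shifts in the results that follow was not tested. All 8 genes listed as traits of HEK293 cells were tested, with a summed level of 1972 to 2419 CPM (counts scaled to a common library total) over the 18 libraries. Most of it was VIM, at 1250 to 1814 CPM, while PAX2, LHX1 and NEFM had medians of 5.21, 4.38 and 1.28 CPM. Of the markers of other cells, blood genes summed to at most 0.269 CPM (HBB had no count), endothelial genes to at most 0.148 CPM, and genes of mature kidney to at most 0.369 CPM (UMOD had no count). Fibroblast genes summed to 9.86 to 15.3 CPM, nearly all of it COL1A1, while DCN reached at most 0.0990 CPM. That sum was 13.2 to 15.3 CPM with siNRF1 and 9.86 to 11.1 CPM with siNT in the NRF1-ΔE7 line, 12.7 to 14.3 CPM with siNRF1 and 10.9 to 11.3 CPM with siNT in the NRF1-FL line, and 11.4 to 13.5 CPM with siNRF1 and 10.2 to 11.03 CPM with siNT without a transgene, and its part in the results was not tested.

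NRF1 itself was read first. NRF1 had 7.19, 9.25 and 7.70 CPM in siNRF1 cells, against 31.1, 29.9 and 29.3 CPM in siNT cells, a difference of -1.92 on the log2 scale, with a standard error of 0.0605 (edgeR's quasi-likelihood test, adjusted p = 5.9e-18). In the NRF1-ΔE7 line it had 37.3, 37.9 and 39.9 CPM with siNRF1, against 58.7, 58.99 and 57.9 CPM with siNT (log2 fold-change -0.61). Cells of the NRF1-FL line had 49.3, 50.4 and 49.1 CPM with siNRF1, against 52.4, 55.7 and 55.2 CPM with siNT (log2 fold-change -0.13, adjusted p = 0.0111 in edgeR's quasi-likelihood test, and -0.05 with adjusted p = 0.339 under upper-quartile scaling). Under siNRF1 every library with a transgene thus held more NRF1 RNA than any siNT library without one, and NRF1 was lower in the NRF1-ΔE7 than in the NRF1-FL line (log2 fold-change -0.37, adjusted p = 9.0e-07, edgeR's quasi-likelihood test). Under siNT the isoform lines differed by 0.10 on the log2 scale (adjusted p = 0.123, edgeR's quasi-likelihood test).

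The siRNA and the promoters of some members on which the results below turn are printed here, because they show which letters each gene carries at its start. Promoter sequences come from RefSeq (GRCh38.p14, 250 bases before to 50 after a gene's start), and 33 of the 40 genes had an entry. All are given 5′ to 3′ along the gene's strand, and capitals mark a match to the NRF1 motif GCGCANGCG or to the ATF4 element TGATGNAA, searched on both strands. The 60 bases shown around a match lie before the start. IARS, NARS and FARSB hold a match and passed both thresholds with siNRF1 in at least 1 setting, and are not printed.
SARS, chr1:109213833-109213892, plus strand: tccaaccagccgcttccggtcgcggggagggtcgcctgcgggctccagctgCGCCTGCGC
IARS2, chr1:220094072-220094131, plus strand: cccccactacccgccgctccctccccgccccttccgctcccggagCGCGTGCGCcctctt
MARS2, chr2:197705309-197705368, plus strand: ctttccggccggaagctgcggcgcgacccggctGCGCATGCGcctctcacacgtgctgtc
MARS2, chr2:197705210-197705269, plus strand: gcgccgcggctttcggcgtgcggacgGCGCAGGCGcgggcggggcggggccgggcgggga
YARS2, chr12:32756061-32756120, minus strand: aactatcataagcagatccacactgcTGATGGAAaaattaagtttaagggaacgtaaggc
The NRF1 motif was found in 7 of the 33 promoters (AIMP2, FARSB, IARS2, MARS2, PARS2, SARS and TARS), against 16.1% of the 12347 tested genes with an entry and 7.52% of all 35116 promoters in the table. In MARS2 the match nearest the start also reads on the other strand, shifted by 1 base. The ATF4 element was found in 8 of the 33 (AARS, CARS, GARS, IARS, MARS, NARS, TARS and YARS2), against 2.75% of the tested genes and 3.62% of all promoters. WARS, AIMP1 and SARS2 had neither in their entries, and AARS2, DARS, LARS, VARS, VARS2 and YARS were among those with no entry. With siNRF1 without a transgene, 6 of the 7 members with the NRF1 motif were lower and 1 higher (median -0.50), against 14 lower and 7 higher of the 26 with an entry and no motif (median -0.081), beside 32.4% lower and 32.1% higher of all genes. In the NRF1-ΔE7 line 5 of the 7 were lower and 1 higher (median -0.47), against 14 lower and 8 higher of the 26 (median -0.11). Of all genes 33.6% were lower and 34.5% higher in that line. In the NRF1-FL line 5 were lower and 1 higher (median -0.41), against 16 lower and 7 higher (median -0.12), beside 31.3% and 32.2% of all genes. A match is a description of letters, not a bound site.

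The guide strand of the siRNA is printed because 1 member carries a match to its seed, which is in capitals (bases 2 to 8).
siNRF1 guide: aGAUACAGaggacaauagc
AIMP1, 3′ UTR: atattgtgtatCTGTATCaaaa
The complement of the seed, CTGTATC, was found in the annotated 3′ UTR of 1 of the 40 members, AIMP1, at base 377 of 1764 (canonical transcript, hg38 with GENCODE v44, chromosome 4). Among the 14245 tested genes with a 3′ UTR, 11.01% carried it.

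In cells without a transgene, siNRF1 lowered 15 of the 23 cytosolic genes and 10 of the 17 mitochondrial genes, and it raised 3 cytosolic and 5 mitochondrial genes, all called by edgeR's quasi-likelihood test with the adjusted p below 0.05. WARS fell most, and VARS and AIMP1 fell by about the same amount as each other. Of all genes tested, 32.4% were lower and 32.1% higher in this comparison. The median log2 fold-change was -0.13 over the cytosolic members and -0.26 over the mitochondrial members, beside 0.0082 over all genes. With an absolute log2 fold-change above 0.5 as well, 6 cytosolic genes (WARS, AIMP1, VARS, SARS, IARS and NARS) and 5 mitochondrial genes (SARS2, MARS2, VARS2, IARS2 and YARS2) were lower, beside 15.2% of all genes, and no member was higher, beside 13.7% of all genes. The highest adjusted p among these 11 was 5.0e-12 (MARS2, edgeR's quasi-likelihood test). Members together took 0.578% to 0.594% of counts in siNRF1 and 0.631% to 0.643% in siNT libraries.

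With siNRF1 in the NRF1-ΔE7 line, 15 cytosolic and 10 mitochondrial members were lower and 4 cytosolic and 5 mitochondrial members were higher, beside 33.6% and 34.5% of all genes. Past the fold threshold there were again 6 cytosolic and 5 mitochondrial members lower, beside 16.8% of all genes, and none higher, beside 16.0%. The median was -0.15 over the cytosolic and -0.25 over the mitochondrial members, and 0.023 over all genes. In the NRF1-FL line, 17 cytosolic and 10 mitochondrial members were lower and 2 cytosolic and 6 mitochondrial members higher, beside 31.3% and 32.2% of all genes. There 6 cytosolic and 3 mitochondrial members were lower past the fold threshold, beside 14.0% of all genes, and none was higher, beside 13.1%. The median was -0.16 over the cytosolic and -0.14 over the mitochondrial members, and 0.023 over all genes. The 3 comparisons use disjoint libraries. Across them, 13 cytosolic and 10 mitochondrial genes were lower in all 3, beside 26.6% of all genes, and 2 cytosolic and 4 mitochondrial genes were higher in all 3, beside 25.8%. No member was called in opposite directions. AIMP1, IARS, NARS, VARS, WARS, MARS2, SARS2 and YARS2 were lower past the fold threshold in all 3, beside 10.9% of all genes. Small changes depended on the scaling: with upper-quartile scaling 11 cytosolic genes were lower with NRF1-ΔE7, 12 with NRF1-FL and 10 without a transgene. Of the 17962 genes tested, 4977, 4612 and 4833 were lower with that scaling, in the same order.

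**Figure D1:**
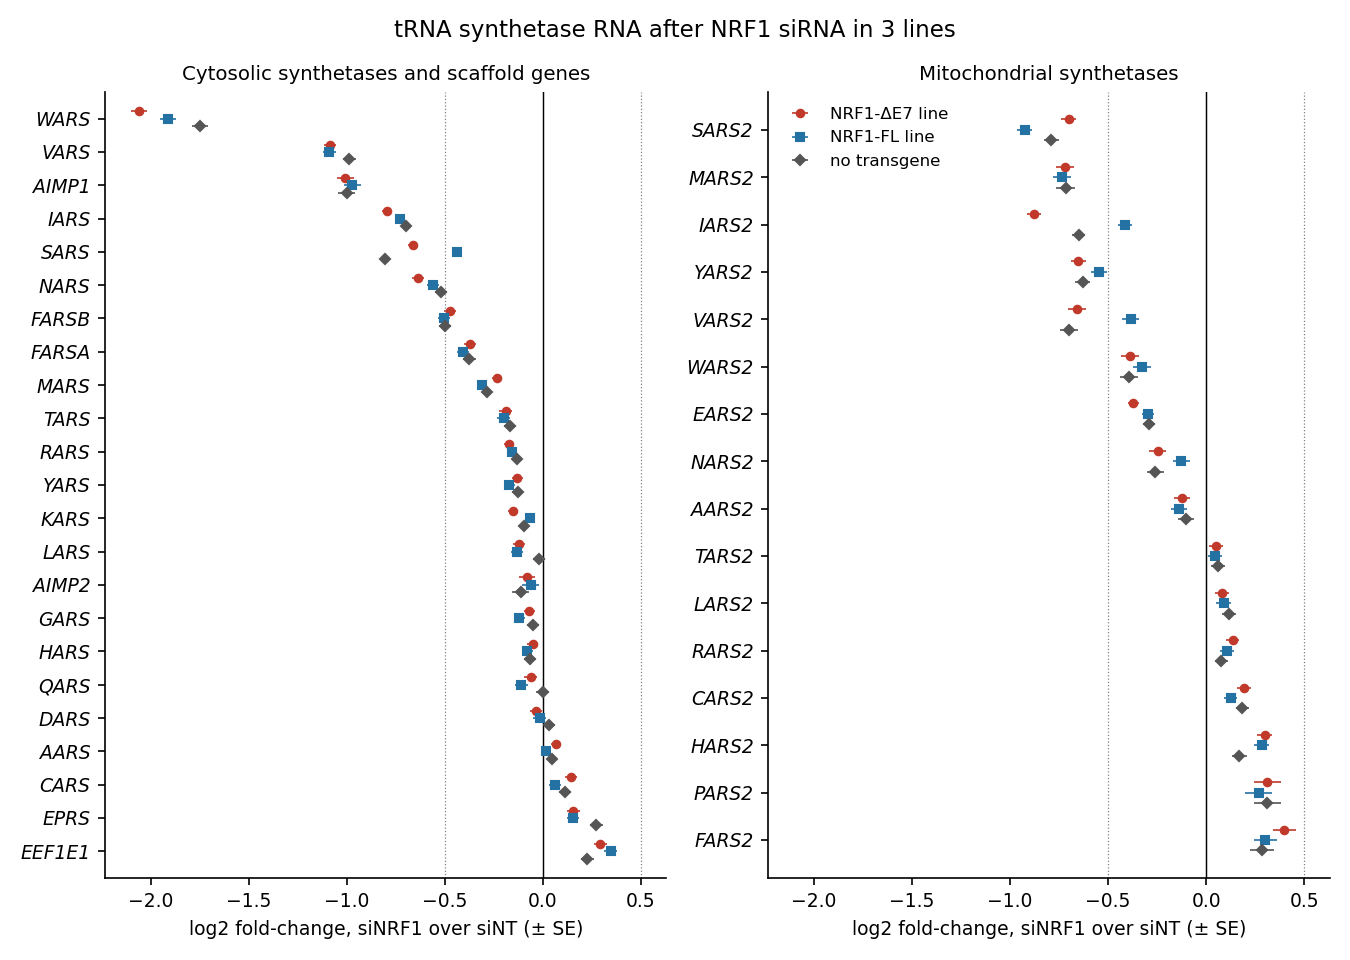
Log2 fold-change of siNRF1 over siNT (horizontal axis, ± standard error) for the 23 cytosolic (left) and 16 of the 17 mitochondrial (right) genes, in the NRF1-ΔE7 line (red circles), the NRF1-FL line (blue squares) and without a transgene (grey diamonds). Dotted lines mark 0.5 in either direction. WARS lies farthest to the left in all 3, and SARS, IARS2 and VARS2 are less negative in the NRF1-FL line. Under upper-quartile scaling points within about 0.1 of the zero line can change sides.

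WARS encodes the cytosolic tryptophanyl-tRNA synthetase, which interferon is known to induce. It had 52.8, 55.7 and 52.1 CPM in siNRF1 cells, against 184, 171 and 184 CPM in siNT cells (log2 fold-change -1.75, standard error 0.0403). In the NRF1-ΔE7 line it had 44.04, 41.7 and 47.1 CPM with siNRF1, against 186, 187 and 182 CPM with siNT (log2 fold-change -2.06), and the siNRF1 libraries lay far below the siNT libraries in both settings. The NRF1-FL line had 51.4, 46.97 and 48.96 CPM with siNRF1, against 183, 182 and 187 CPM with siNT (log2 fold-change -1.91). The siRNA effect in the NRF1-ΔE7 line differed from that without a transgene by -0.31 (adjusted p = 0.00426, edgeR's quasi-likelihood test of the interaction), so WARS fell further there. The difference between the NRF1-FL line and cells without a transgene was -0.16 (adjusted p = 0.125, same test). That difference passed with DESeq2 (-0.17, adjusted p = 0.0453, Wald test) and with no filter on low counts (-0.17, adjusted p = 0.0337, edgeR's quasi-likelihood test). WARS was not called for the NRF1-ΔE7 line minus the NRF1-FL line. The mitochondrial tryptophanyl enzyme, WARS2, fell by less in each setting, with log2 fold-changes of -0.39 in the NRF1-ΔE7 line, -0.33 in the NRF1-FL line and -0.39 without a transgene.

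VARS, the cytosolic valyl-tRNA synthetase, had 146, 154 and 147 CPM in siNRF1 cells, against 308, 289 and 289 CPM in siNT cells (log2 fold-change -0.99, standard error 0.0332). It had 165, 154 and 155 CPM with siNRF1, against 340.0, 336 and 330.4 CPM with siNT in the NRF1-ΔE7 line (-1.09). In the NRF1-FL line it had 167, 159 and 158 CPM with siNRF1, against 348, 337 and 344 CPM with siNT (-1.09). The siNRF1 and siNT libraries were far apart in all 3 settings, and neither interaction with a transgene passed the test (adjusted p = 0.318 for NRF1-ΔE7 and 0.28 for NRF1-FL, edgeR's quasi-likelihood test).

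AIMP1 encodes a scaffold protein of the multi-synthetase complex. It had 37.1, 34.5 and 33.3 CPM in siNRF1 cells, against 70.1, 72.8 and 67.4 CPM in siNT cells (log2 fold-change -1.0, standard error 0.0441). The levels were 35.1, 34.3 and 34.4 CPM with siNRF1, against 70.4, 70.2 and 68.3 CPM with siNT in the NRF1-ΔE7 line (-1.01). They were 31.7, 35.4 and 35.4 CPM with siNRF1, against 65.95, 69.5 and 65.6 CPM with siNT in the NRF1-FL line (-0.97). The fall was of nearly one size in all 3 settings. AIMP1 is the member with the printed seed match, and the part of that match in the result was not tested. The other scaffold genes moved little or the other way. AIMP2 had a log2 fold-change of -0.11 without a transgene (adjusted p = 0.0243, edgeR's quasi-likelihood test, and -0.03 with adjusted p = 0.603 under upper-quartile scaling), and on the strand opposite to it lies EIF2AK1, which overlaps 44.4% of its transcript, with the strand setting of the counting not given in the sources used here. EEF1E1, the third scaffold gene, rose by 0.29 with siNRF1 in the NRF1-ΔE7 line, by 0.35 in the NRF1-FL line and by 0.23 without a transgene; 37.5% of its transcript is shared with the readthrough gene EEF1E1-BLOC1S5 in the later annotation.

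IARS, the cytosolic isoleucyl-tRNA synthetase, had 274, 265 and 275 CPM in siNRF1 cells, against 439, 439 and 441 CPM in siNT cells (log2 fold-change -0.70). With siNRF1 it had 257, 265 and 263 CPM in the NRF1-ΔE7 line, against 451, 456 and 456 CPM with siNT (-0.80). With siNRF1 it had 264, 269 and 265 CPM in the NRF1-FL line, against 444, 446 and 431 CPM with siNT (-0.73). IARS levels varied little between the lines, and every siNRF1 library lay below every siNT library. NARS, the asparaginyl enzyme, had 172, 161 and 164 CPM in siNRF1 cells, against 236, 242 and 234 CPM in siNT cells (-0.52). NARS had 153, 149 and 146 CPM with siNRF1, against 232, 231 and 234 CPM with siNT in the NRF1-ΔE7 line (-0.64). In the NRF1-FL line NARS had 160.0, 161 and 168 CPM with siNRF1, against 245, 244 and 232 CPM with siNT (-0.56). Groups did not overlap for either gene. Of the complex's 11 genes measured, 6 were lower and 2 higher with siNRF1 in the NRF1-ΔE7 line, 7 lower and 2 higher in the NRF1-FL line, and 6 lower and 2 higher without a transgene, with medians of -0.12, -0.11 and -0.10. Called in either direction were 72.7%, 81.8% and 72.7% of them, beside 68.1%, 63.6% and 64.5% of all genes, so the share was near that of all genes with NRF1-ΔE7 and without a transgene.

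FARSB and FARSA encode the subunits of the cytosolic phenylalanyl-tRNA synthetase, and they fell together. FARSB had 107, 107 and 104 CPM in siNRF1 cells, against 154, 149 and 145 CPM in siNT cells (log2 fold-change -0.50). It had 101, 103 and 102 CPM with siNRF1, against 139.9, 144 and 142 CPM with siNT in the NRF1-ΔE7 line (-0.47). FARSB had 106, 109 and 101 CPM with siNRF1, against 152, 151 and 146 CPM with siNT in the NRF1-FL line (-0.51), the only setting where it was past the fold threshold, by a margin that the standard error of 0.0303 covers. FARSA had log2 fold-changes of -0.37 in the NRF1-ΔE7 line, -0.41 in the NRF1-FL line and -0.37 without a transgene. The single-chain mitochondrial phenylalanyl enzyme, FARS2, rose instead, with 0.40, 0.30 and 0.28 in the same order.

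The mitochondrial seryl enzyme, SARS2, had 43.3, 44.2 and 44.3 CPM in siNRF1 cells, against 78.9, 72.1 and 76.4 CPM in siNT cells (log2 fold-change -0.79, standard error 0.0379). It had 44.3, 45.3 and 44.1 CPM with siNRF1, against 73.3, 72.8 and 71.1 CPM with siNT in the NRF1-ΔE7 line (-0.70), and 42.3, 39.6 and 43.5 CPM with siNRF1, against 76.6, 79.8 and 81.4 CPM with siNT in the NRF1-FL line (-0.93). The fall in the NRF1-ΔE7 line was smaller than that in the NRF1-FL line by 0.23 (adjusted p = 0.0088, edgeR's quasi-likelihood test of the interaction). A readthrough gene on the same strand covers 77.5% of the SARS2 transcript, so its counts are uncertain. MARS2, the mitochondrial methionyl enzyme, encoded by 1 exon, had 15.4, 15.6 and 15.3 CPM in siNRF1 cells, against 26.02, 25.4 and 24.6 CPM in siNT cells (-0.72). It had 15.2, 15.4 and 14.6 CPM with siNRF1, against 25.4, 23.6 and 25.1 CPM with siNT in the NRF1-ΔE7 line (-0.72). The NRF1-FL line had 15.98, 15.4 and 14.7 CPM with siNRF1, against 25.1, 26.3 and 25.4 CPM with siNT (-0.74). MARS2, whose promoter holds the NRF1 motif at the printed positions, lay between 14.6 and 16.0 CPM in every siNRF1 library of the 3 settings.

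YARS2, the mitochondrial tyrosyl enzyme, had 36.3, 34.5 and 37.8 CPM in siNRF1 cells, against 57.5, 56.9 and 53.9 CPM in siNT cells (log2 fold-change -0.63). It had 36.4, 37.7 and 38.04 CPM with siNRF1, against 60.1, 57.5 and 58.6 CPM with siNT in the NRF1-ΔE7 line (-0.65), and 40.7, 39.2 and 41.9 CPM with siNRF1, against 60.2, 57.4 and 60.1 CPM with siNT in the NRF1-FL line (-0.55). The siNRF1 and siNT libraries did not overlap in any line. Besides IARS2 and VARS2, the mitochondrial genes lower in all 3 settings included AARS2, EARS2, NARS2 and WARS2, with log2 fold-changes between -0.39 and -0.10 without a transgene. AARS2 did not pass the test under upper-quartile scaling in any of the 3, nor did NARS2 in the NRF1-FL line. Without a transgene the AARS2 call was also lost in a fit of the compared libraries alone (adjusted p = 0.0574). Leaving out siNRF1 replicate 1 or 2, or siNT replicate 1 or 2, lost it too (adjusted p of 0.0645 to 0.207, all edgeR's quasi-likelihood test). The NARS2 call in the NRF1-FL line was lost without siNRF1+NRF1-FL replicate 1 or 3.

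Higher with siNRF1 in all 3 settings were EPRS, the enzyme for both glutamate and proline, EEF1E1, and the mitochondrial genes CARS2, FARS2, HARS2 and PARS2. None reached a log2 fold-change of 0.5. Values of EPRS and PARS2 are given as examples chosen after they were seen. EPRS had 479, 455 and 439.5 CPM in siNRF1 cells, against 379, 384 and 373 CPM in siNT cells (0.27), with 0.16 in the NRF1-ΔE7 line and 0.15 in the NRF1-FL line. PARS2, the mitochondrial prolyl enzyme, had 16.4, 17.96 and 17.5 CPM in siNRF1 cells, against 14.1, 13.8 and 13.8 CPM in siNT cells (0.31), and its promoter entry holds the NRF1 motif just past the start. HARS and HARS2, the cytosolic and mitochondrial histidyl enzymes, lie head to head on chromosome 5 (hg38, chr5:140673035-140691537, minus strand, and chr5:140691430-140699305, plus strand) and moved apart. HARS2 rose by 0.30, 0.28 and 0.17 in the NRF1-ΔE7 line, the NRF1-FL line and without a transgene, while HARS had values of -0.05 (adjusted p = 0.105, edgeR's quasi-likelihood test), -0.08 and -0.07, of which none passed under upper-quartile scaling, where all 3 lay above 0. The HARS call without a transgene was also lost with RLE scaling (adjusted p = 0.0516, edgeR's quasi-likelihood test) and DESeq2 (adjusted p = 0.0545, Wald test). It was lost as well with no filter, with at least 10 counts in every library and in a fit of the compared libraries alone. Leaving out any siNRF1 library, or siNT replicate 1 or 2, lost it too. The annotated ends of HARS and HARS2 overlap, so reads there cannot be assigned without strand. DARS and TARS2 were called in none of the 3 settings, with values between -0.04 and 0.03 for DARS and between 0.05 and 0.06 for TARS2, and under upper-quartile scaling both were higher without a transgene (adjusted p = 0.00232 for DARS and 0.00159 for TARS2, edgeR's quasi-likelihood test) and TARS2 was higher in both lines as well.

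Of 13 cytosolic genes taken as known ATF4 targets, 10 were lower and 3 higher with siNRF1 in the NRF1-ΔE7 line, 10 lower and 1 higher in the NRF1-FL line, and 8 lower and 2 higher without a transgene, with medians of -0.19, -0.20 and -0.17. The 10 other cytosolic members had 5 lower and 1 higher, 7 lower and 1 higher, and 7 lower and 1 higher in the same order, with medians of -0.12, -0.10 and -0.11. A list of 24 other genes of the amino acid response had 11 lower and 11 higher, 13 lower and 8 higher, and 11 lower and 7 higher, with medians of -0.0025, -0.13 and -0.034. All genes had 33.6% lower and 34.5% higher in the NRF1-ΔE7 line, 31.3% and 32.2% in the NRF1-FL line, and 32.4% and 32.1% without a transgene. The medians of all 3 lists lay below that of all genes. DDIT4, an inhibitor of mTOR signalling, was lower without a transgene (log2 fold-change -1.21), and CHAC1, a glutathione-degrading enzyme, was higher (1.20). ATF4 RNA, named after its values were seen, was higher by 0.19 in the NRF1-ΔE7 line, 0.16 in the NRF1-FL line and 0.17 without a transgene.

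Whether a transgene changed the siRNA effect was tested by the interaction of line and siRNA. SARS, the cytosolic seryl-tRNA synthetase, IARS2, the mitochondrial isoleucyl enzyme, and VARS2, the mitochondrial valyl enzyme, fell less with siNRF1 in the NRF1-FL line than without a transgene, and less than in the NRF1-ΔE7 line. The NRF1-FL line against cells without a transgene gave no member lower and 3 members higher, beside 1.15% and 4.18% of all genes. The NRF1-ΔE7 line against the NRF1-FL line gave 3 members lower and 1 higher, beside 5.55% and 1.64% of all genes, and the NRF1-ΔE7 line against cells without a transgene gave 2 lower and 1 higher, beside 1.59% and 0.44%. The comparisons share libraries in pairs.

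SARS had 91.6, 92.8 and 93.98 CPM with siNRF1 in the NRF1-ΔE7 line, against 146, 146 and 149 CPM with siNT (log2 fold-change -0.66, standard error 0.0258). It had 130.0, 133 and 129 CPM with siNRF1 in the NRF1-FL line, against 175, 176 and 181 CPM with siNT (-0.44). Without a transgene it had 100.3, 101 and 98.2 CPM with siNRF1, against 173, 178 and 173 CPM with siNT (-0.81). All siNRF1 libraries of the NRF1-FL line thus lay between the siNRF1 and siNT libraries of cells without a transgene. The interaction was -0.23 for NRF1-ΔE7 minus NRF1-FL (adjusted p = 1.4e-04) and 0.37 for NRF1-FL minus no transgene (adjusted p = 1.6e-07, both from edgeR's quasi-likelihood test). For NRF1-ΔE7 minus no transgene it was 0.14 (adjusted p = 0.0428, edgeR's quasi-likelihood test), which did not pass with RLE scaling (0.13, adjusted p = 0.0550), with no filter on low counts, or in a fit of the compared libraries alone. That call was also lost on leaving out any one of the compared libraries except siNRF1+NRF1-ΔE7 replicate 1, with values of 0.13 to 0.15. The siNT level of SARS was lower in the NRF1-ΔE7 line than in cells without a transgene (-0.25, adjusted p = 3.1e-07, edgeR's quasi-likelihood test).

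IARS2 had 176, 167 and 159.8 CPM with siNRF1 in the NRF1-ΔE7 line, against 308, 308 and 308 CPM with siNT (log2 fold-change -0.88, standard error 0.0353). It had 224, 226 and 220.3 CPM with siNRF1 in the NRF1-FL line, against 306, 303 and 286 CPM with siNT (-0.41). Without a transgene it had 195, 187 and 178 CPM with siNRF1, against 295, 299 and 284 CPM with siNT (-0.65). With siNRF1 the libraries of the NRF1-FL line were the highest, those of the NRF1-ΔE7 line the lowest, and no siNRF1 group overlapped another. The interaction was -0.46 for NRF1-ΔE7 minus NRF1-FL (adjusted p = 5.7e-07), 0.24 for NRF1-FL minus no transgene (adjusted p = 0.00362) and -0.23 for NRF1-ΔE7 minus no transgene (adjusted p = 0.0155, all from edgeR's quasi-likelihood test). The last was lost without siNRF1 replicate 1 (-0.20, adjusted p = 0.0522) and without siNT replicate 3 (-0.21, adjusted p = 0.0591). IARS2 and SARS are among the members with the NRF1 motif printed above.

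VARS2 had 34.5, 35.4 and 34.9 CPM with siNRF1 in the NRF1-ΔE7 line, against 54.5, 55.9 and 54.99 CPM with siNT (log2 fold-change -0.66, standard error 0.0453). It had 45.5, 46.3 and 44.4 CPM with siNRF1 in the NRF1-FL line, against 55.5, 60.03 and 62.4 CPM with siNT (-0.39), and without a transgene 32.00, 33.6 and 35.9 CPM with siNRF1, against 52.4, 57.8 and 55.2 CPM with siNT (-0.70). All siNRF1 libraries of the NRF1-FL line lay above all other siNRF1 libraries and below all siNT libraries. The interaction was -0.27 for NRF1-ΔE7 minus NRF1-FL (adjusted p = 0.00736) and 0.32 for NRF1-FL minus no transgene (adjusted p = 0.00263), while NRF1-ΔE7 minus no transgene was 0.04 (adjusted p = 0.816, all from edgeR's quasi-likelihood test). A same-strand gene in the later annotation covers the whole VARS2 transcript.

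**Figure D2:**
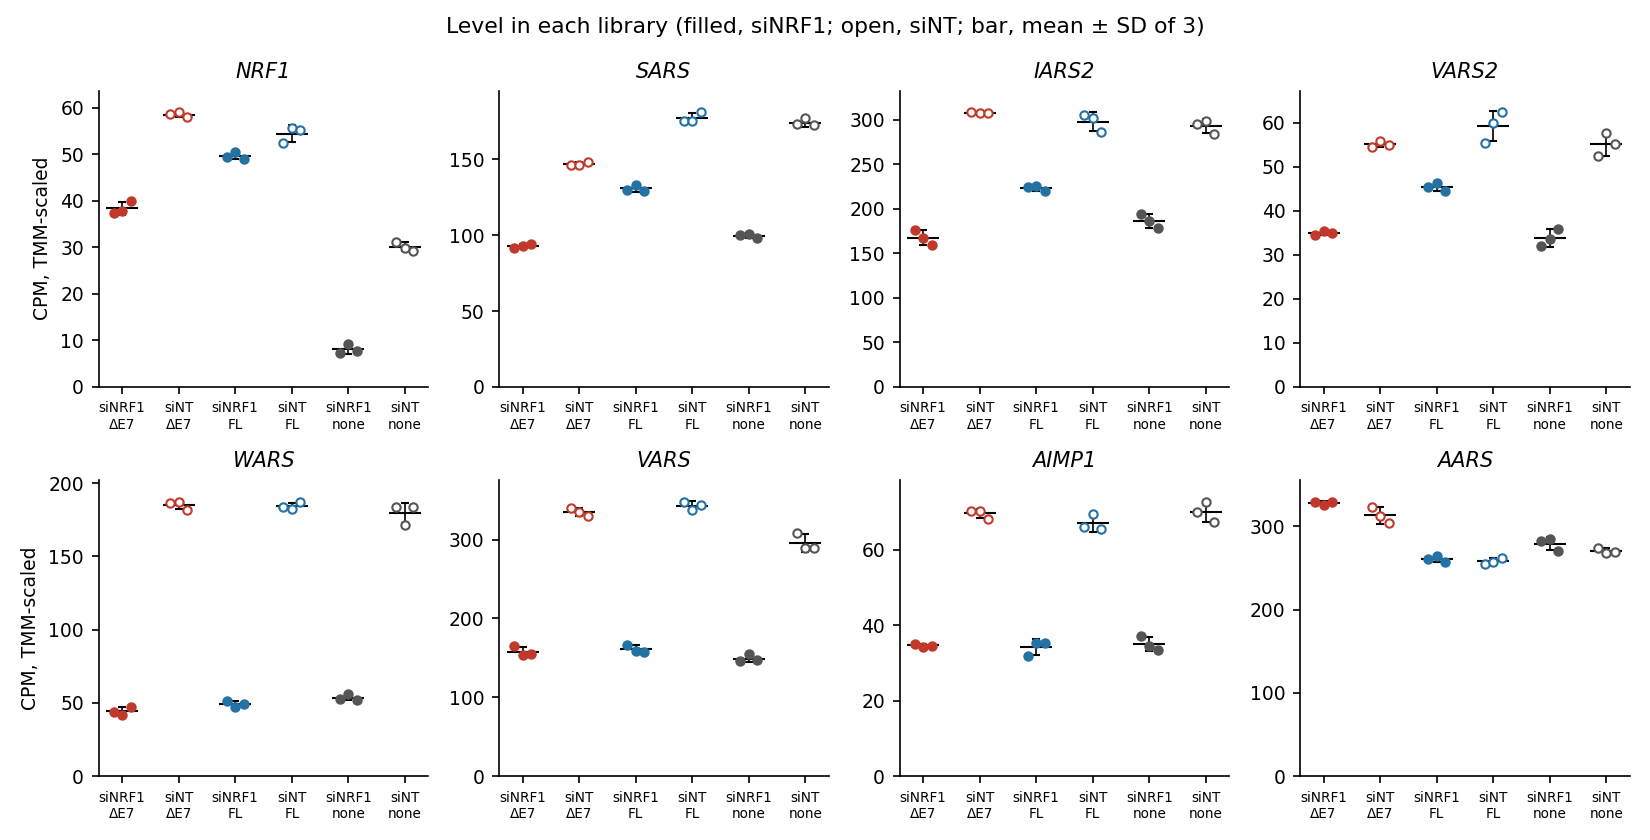
CPM on the TMM scale (vertical axis) in each of the 18 libraries for NRF1 and 7 members, with siNRF1 libraries as filled and siNT libraries as open points, and the mean ± SD of 3 libraries as a bar. SARS, IARS2 and VARS2 are higher with siNRF1 in the NRF1-FL line than with siNRF1 in the other cells, WARS, VARS and AIMP1 are low in every siNRF1 group, and AARS is highest in the NRF1-ΔE7 line with either siRNA.

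NRF1-ΔE7 was compared with NRF1-FL directly under siNRF1. There 6 cytosolic and 6 mitochondrial members were lower, beside 17.8% of all genes, and 4 cytosolic and 1 mitochondrial member were higher, beside 13.9%. No member passed the fold threshold in either direction, beside 4.1% lower and 2.11% higher of all genes, although SARS reached -0.497. Of all calls in this comparison 56.2% were lower, and 45.9% under upper-quartile scaling. The median was -0.023 over the cytosolic and -0.058 over the mitochondrial members, and 0.0033 over all genes. SARS, at 91.6, 92.8 and 93.98 CPM in the NRF1-ΔE7 line, against 130.0, 133 and 129 CPM in the NRF1-FL line, changed most (standard error 0.0259, adjusted p = 9.1e-13, edgeR's quasi-likelihood test). IARS2 followed with 176, 167 and 159.8 CPM, against 224, 226 and 220.3 CPM (-0.42, adjusted p = 3.8e-09, same test), and VARS2 with 34.5, 35.4 and 34.9 CPM, against 45.5, 46.3 and 44.4 CPM (-0.38, adjusted p = 8.4e-07, same test). For these 3 genes the NRF1-ΔE7 libraries lay below every NRF1-FL library.

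AARS, the cytosolic alanyl-tRNA synthetase, moved the other way, with 329.7, 326 and 329 CPM in the NRF1-ΔE7 line, against 261, 264 and 258 CPM in the NRF1-FL line under siNRF1 (0.33, adjusted p = 9.7e-10, edgeR's quasi-likelihood test). CARS, GARS and MARS, the cysteinyl, glycyl and methionyl enzymes, were higher by 0.18, 0.14 and 0.11. All 4 hold the ATF4 element in their promoter entries, as do TARS, NARS and YARS2, which were lower, and IARS, which was not called (-0.03, adjusted p = 0.461, edgeR's quasi-likelihood test). The YARS2 call was lost under DESeq2 (-0.11, adjusted p = 0.0590, Wald test). It was also lost with upper-quartile scaling (-0.09, adjusted p = 0.0836, edgeR's quasi-likelihood test), with no filter and in a fit of the compared libraries alone. WARS2, also called lower, was lost under these 4 alternatives and with RLE scaling (-0.11, adjusted p = 0.0657, edgeR's quasi-likelihood test). Of the 25 members with an entry and no ATF4 element, 8 were lower and 1 was higher, beside 17.8% and 13.9% of all genes. TARS, the threonyl enzyme, had 420.0, 425 and 410.4 CPM in the NRF1-ΔE7 line, against 482, 486 and 487 CPM in the NRF1-FL line under siNRF1 (-0.21), and holds both motifs. PARS2 had 16.7, 16.99 and 17.3 CPM, against 15.9, 14.3 and 13.98 CPM (0.21, adjusted p = 0.0221, edgeR's quasi-likelihood test). That call was lost without siNRF1+NRF1-FL replicate 2 (adjusted p = 0.0800) or 3 (adjusted p = 0.0885) and without siNRF1+NRF1-ΔE7 replicate 3 (adjusted p = 0.0594, all edgeR's quasi-likelihood test).

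Under siNT, where endogenous NRF1 remained, the isoform lines differed in 8 members. Lower in the NRF1-ΔE7 line were 3 cytosolic and 2 mitochondrial members, beside 8.42% of all genes, and higher were 3 cytosolic members and no mitochondrial member, beside 7.13%. The median was -0.012 over the cytosolic and -0.061 over the mitochondrial members, and -0.0074 over all genes. AARS had 323, 313 and 304 CPM in the NRF1-ΔE7 line, against 255, 257 and 262 CPM in the NRF1-FL line (0.28), a difference close to that under siNRF1. SARS had 146, 146 and 149 CPM, against 175, 176 and 181 CPM (-0.27), about 0.23 nearer to 0 than under siNRF1. FARSA had 249, 243 and 247 CPM, against 285, 288 and 289 CPM (-0.22). CARS2, the mitochondrial cysteinyl enzyme, had 58.8, 60.2 and 56.7 CPM, against 66.2, 69.8 and 67.9 CPM (-0.22). TARS was also lower (-0.22), and CARS (0.09) and GARS (0.09) higher. The CARS call was lost with DESeq2 (adjusted p = 0.0620, Wald test) and with no filter. It was also lost without any 1 of the siNT+NRF1-FL libraries, or siNT+NRF1-ΔE7 replicate 2 or 3. The GARS call was lost with no filter, and without siNT+NRF1-FL replicate 2 or 3 or siNT+NRF1-ΔE7 replicate 1 or 2. IARS2 and VARS2 had values of 0.05 (adjusted p = 0.403) and -0.11 (adjusted p = 0.108, edgeR's quasi-likelihood test). SARS2 had 73.3, 72.8 and 71.1 CPM, against 76.6, 79.8 and 81.4 CPM (-0.13, adjusted p = 0.0136, edgeR's quasi-likelihood test), which was lost without siNT+NRF1-FL replicate 3 (-0.11, adjusted p = 0.0719) or siNT+NRF1-ΔE7 replicate 3 (-0.12, adjusted p = 0.0668). Without siNT+NRF1-FL replicate 3, 5 members were called, and 1 cytosolic member was higher without that library, without siNT+NRF1-FL replicate 2 or without siNT+NRF1-ΔE7 replicate 2.

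**Figure D3:**
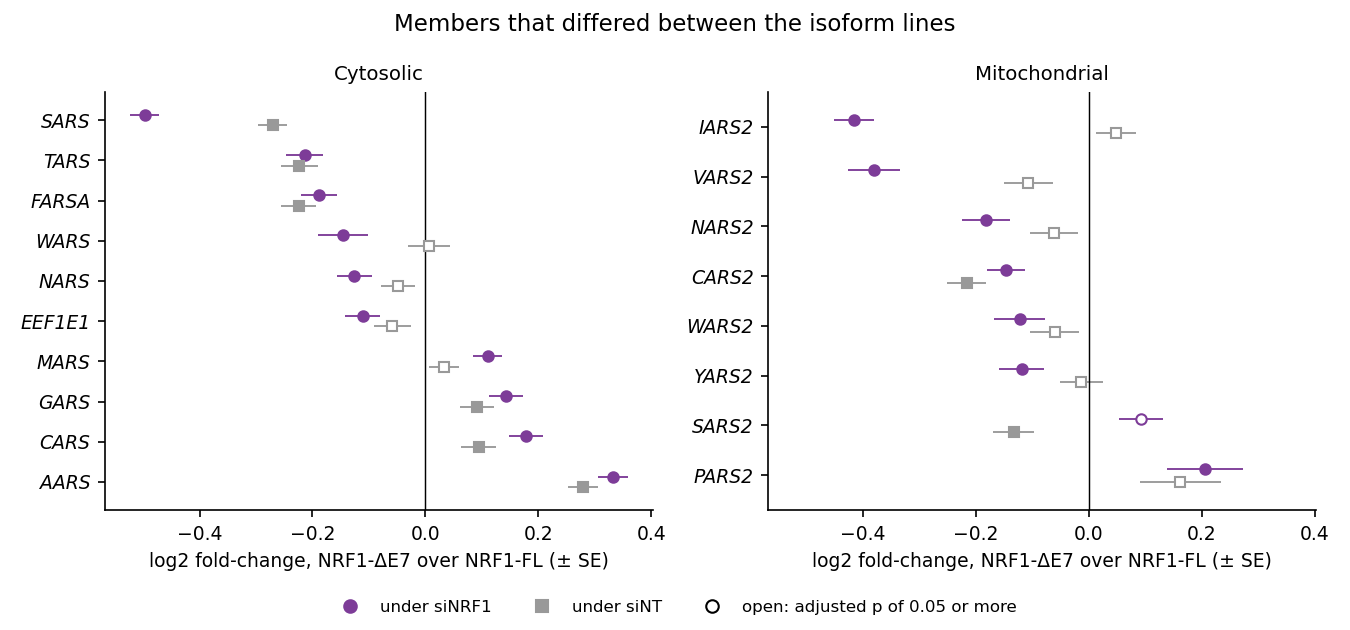
Log2 fold-change of NRF1-ΔE7 over NRF1-FL (horizontal axis, ± standard error) for the 10 cytosolic and 8 mitochondrial members called in at least 1 of the 2 comparisons, under siNRF1 (purple circles) and under siNT (grey squares), with open points where the adjusted p was 0.05 or more. AARS, TARS and FARSA have nearly the same value with either siRNA, while IARS2 is at -0.42 under siNRF1 and 0.05 under siNT.

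Known ATF4 targets among the cytosolic members split evenly under siNRF1, with 4 of 13 lower and 4 higher in the NRF1-ΔE7 than in the NRF1-FL line (median -0.023). Of the 24 other amino acid response genes 1 was lower and 19 were higher (median 0.20). Of all genes 17.8% were lower and 13.9% higher. The lists were not tested against each other. CHAC1 at 0.57 and ATF5, a transcription factor related to ATF4, at 0.50 led that list. Under siNT, 12 of the 24 were higher and none lower by the same test (median 0.12), beside 7.13% and 8.42% of all genes, with SLC7A5, a subunit of a transporter of large amino acids, at 0.44. Of the 11 genes of the multi-synthetase complex, 1 was lower (EEF1E1) and 1 higher (MARS) under siNRF1 and none was called under siNT.

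The lines were also set against cells without a transgene under siNT. In the NRF1-FL line no member was lower and 3 cytosolic members were higher, beside 2.81% and 5.33% of all genes. These were VARS, at 348, 337 and 344 CPM, against 308, 289 and 289 CPM in siNT cells without a transgene (0.21), TARS (0.13, adjusted p = 0.0135) and QARS (0.12, adjusted p = 0.0349, edgeR's quasi-likelihood test). TARS was lost without siNT replicate 3 or siNT+NRF1-FL replicate 1 or 2 (adjusted p of 0.0547 to 0.0924). QARS was lost without siNT replicate 2 or 3 or siNT+NRF1-FL replicate 2 or 3 (adjusted p of 0.0831 to 0.154) and under upper-quartile scaling (adjusted p = 0.0736, all edgeR's quasi-likelihood test). In the NRF1-ΔE7 line 3 cytosolic and 2 mitochondrial members were lower and 5 cytosolic members higher, beside 7.69% and 8.62% of all genes. SARS (-0.25) and FARSA (-0.19) were lower, and AARS had 323, 313 and 304 CPM, against 275, 269 and 269 CPM in siNT cells without a transgene (0.21, adjusted p = 4.5e-06, edgeR's quasi-likelihood test). VARS was higher in both lines (0.18 in the NRF1-ΔE7 line). HARS2 was lower (-0.15), a call lost without siNT replicate 3 or siNT+NRF1-ΔE7 replicate 2 (adjusted p = 0.0581 and 0.0547). CARS2 was lower (-0.13), a call lost without siNT replicate 1 or siNT+NRF1-ΔE7 replicate 3 (adjusted p = 0.0788 and 0.0847, all edgeR's quasi-likelihood test).

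Per length of transcript, cytosolic members were mostly more abundant than mitochondrial ones. In siNT cells without a transgene the level ran from 20.1 to 190.3 CPM per kb over the 23 cytosolic genes (median 78.8) and from 5.90 to 83.0 CPM per kb over the 17 mitochondrial genes (median 16.0). TARS had 169 CPM per kb in siNRF1 cells, against 190.3 in siNT cells, the highest level in both. FARSA, MARS, KARS and YARS came next in siNT cells, and KARS and YARS, at 121 and 117 CPM per kb, differed by about their spread (SD 3.64 and 2.55, n = 3). IARS2 had 52.9 CPM per kb in siNRF1 cells, against 82.99 CPM per kb in siNT cells, where it was the highest mitochondrial gene. WARS fell to 20.3 CPM per kb in siNRF1 cells, against 68.1 in siNT cells, near the 21.7 CPM per kb of CARS in siNRF1 cells. In siNT cells CARS was the lowest cytosolic gene, and MARS2, FARS2 and PARS2 were the lowest of the 40.

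**Figure D4:**
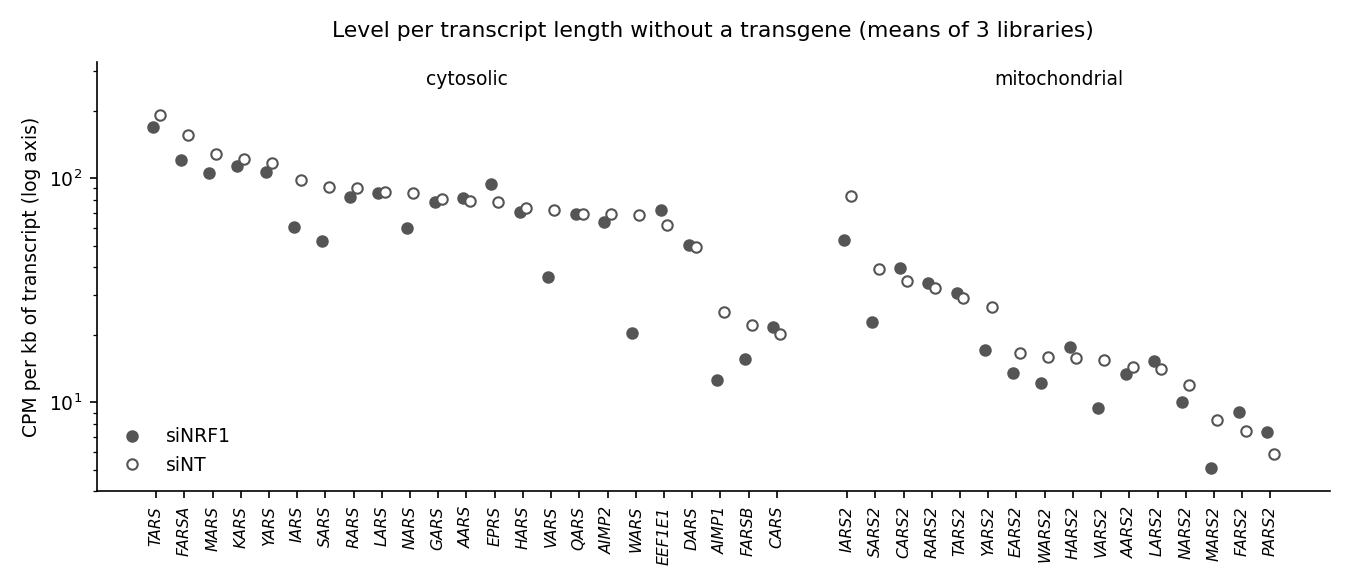
Mean level per kb of canonical transcript (vertical log axis, CPM per kb) in cells without a transgene, siNRF1 filled and siNT open, for the 23 cytosolic genes on the left and 16 of the 17 mitochondrial genes on the right, each in falling order of the siNT level. The cytosolic siNT levels run from 20.1 to 190.3 and the mitochondrial ones from 5.90 to 83.0 CPM per kb, and the widest gap between filled and open points is at WARS.

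Other genes of tRNA charging and translation were read from lists for comparison, beside 33.6%, 31.3% and 32.4% of all genes lower and 34.5%, 32.2% and 32.1% higher in the NRF1-ΔE7 line, the NRF1-FL line and without a transgene. Of 11 further charging genes, 7 were lower and 1 higher with siNRF1 in the NRF1-ΔE7 line, 6 lower and none higher by the same test in the NRF1-FL line, and 7 lower and none higher without a transgene (medians -0.091, -0.14 and -0.19). MTFMT changed most of them in the NRF1-ΔE7 line (-0.53), where it was the 1 charging gene past the fold threshold. AARSD1 changed most in the NRF1-FL line (-0.46) and without a transgene (-0.47), where none passed that threshold. DTD1, which removes D-amino acids from tRNA, was at -0.48, -0.39 and -0.41 in the NRF1-ΔE7 line, the NRF1-FL line and without a transgene. Of 17 genes that process or modify mitochondrial tRNA, 8, 7 and 8 were lower and 6, 4 and 4 higher in the same order (medians -0.012, -0.071 and 0.0016). KIAA0391, the catalytic subunit of mitochondrial RNase P, had -1.21, -1.07 and -0.98, and TRIT1, a tRNA isopentenyl transferase, -0.44, -0.18 and -0.59. TRIT1 also fell less in the NRF1-FL line, with an interaction of 0.42 for NRF1-FL minus no transgene and -0.27 for NRF1-ΔE7 minus NRF1-FL (adjusted p = 9.3e-05 and 0.00789, edgeR's quasi-likelihood test). TRIT1 was the only 1 of the 17 called in these interactions. Of all genes, 1.15% were lower and 4.18% higher in the first, and 5.55% and 1.64% in the second. Of 10 mitochondrial translation factors, 5, 4 and 5 were lower and 2, 2 and 1 higher (medians -0.11, -0.085 and -0.12). Called in either direction were 70%, 60% and 60% of these factors, near the 68.1%, 63.6% and 64.5% of all genes, and 72.7%, 54.5% and 63.6% of the charging genes were called. MRRF was the factor lower past the fold threshold in all 3 settings, at -0.53, -0.60 and -0.63. C12orf65, a mitochondrial release factor, was at -0.17, 0.33 and -0.19, with an interaction of -0.50 for NRF1-ΔE7 minus NRF1-FL. It was the only 1 of the 10 factors called in that interaction, beside 5.55% lower and 1.64% higher of all genes. Of 6 cytosolic elongation factors, 4, 5 and 4 were lower and 0, 0 and 1 higher (medians -0.31, -0.32 and -0.23), with EEF1G at -1.03, -1.15 and -1.01 and EIF5A at -0.73, -0.59 and -0.57. Under siNRF1, NRF1-ΔE7 against NRF1-FL gave 2 lower and 1 higher of the charging genes, 3 and 1 of the tRNA processing genes, 1 and 2 of the mitochondrial factors and 2 and 4 of the elongation factors, beside 17.8% and 13.9% of all genes.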

How the data were processed

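The authors trimmed reads with Cutadapt 1.18, aligned them with STAR 2.7.0f to hg38 and used GENCODE v30, while DESeq2 1.46.0 is named in the processing notes of the submitters. The counting step (tool, strand) is not given in the sources used for these results. The authors deposited un-normalized estimated counts for each gene. Of these values 91.9% were whole, and all were rounded to whole numbers. Of 36 columns, 18 matched no sample here and were not used. Genes were filtered with filterByExpr (minimum count 10), scaled by TMM and tested in 1 fit of the 18 libraries with edgeR's quasi-likelihood test (edgeR 4.0.16, R 4.3.3, 12 residual degrees of freedom), two-sided, with Benjamini-Hochberg adjustment over the 17962 genes tested. A gene was called at an adjusted p under 0.05, and past the fold threshold at an absolute log2 fold-change above 0.5. CPM are on the TMM scale, and levels per kb use the canonical GENCODE v44 transcript.

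The members, the lists and the tests were chosen with earlier results of these data known. Per-library values are given for NRF1 and, in each comparison, for members past both thresholds, otherwise for the 3 called members with the largest change, cytosolic and mitochondrial apart, and for other lists up to 2 genes are named. The alternatives tried were upper-quartile and RLE scaling, no filter, at least 10 counts in every library, DESeq2 1.42.0, a fit of the compared libraries alone, the replicate number as a block, and leaving out each library. Of the mitochondrial members, 1 enters the counts and medians but is not reported here by itself. The scripts were tested on simulated data. Tables and plots used Python 3.11.15 with numpy 2.4.6, pandas 2.3.3 and matplotlib 3.10.9. Library totals of 31.2 M to 44.8 M counts set the counting precision.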

Additional observations from a re-analysis of the deposited data

Results flagged for a closer look

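For 5 members the siRNA effect differed between lines by a test of the interaction itself (edgeR's quasi-likelihood test, adjusted over all genes tested), 10 differences in all, and each is a difference of log2 fold-changes of siNRF1 over siNT. In the NRF1-FL line minus cells without a transgene it was 0.37 for SARS, 0.24 for IARS2 and 0.32 for VARS2. In the NRF1-ΔE7 line minus cells without a transgene it was 0.14 for SARS, -0.23 for IARS2 and -0.31 for WARS. In the NRF1-ΔE7 line minus the NRF1-FL line it was -0.23 for SARS, -0.46 for IARS2, -0.27 for VARS2 and 0.23 for SARS2. Line and transgene cannot be told apart in these differences.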

How the results depend on the processing

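Upper-quartile scaling moved most of the counts of siRNA and isoform effects that moved under an alternative. For single genes other choices mattered as well. Over 163 gene changes followed, calls were lost with the sign kept in 47 of 1141 values under alternatives and in 86 of 1062 on leaving out a library. Under upper-quartile scaling 6 cytosolic members were higher with siNRF1 without a transgene and 4 in the NRF1-FL line. Of the 17962 genes tested, 6976 and 7011 were higher there. With the same scaling 2 mitochondrial members were higher in the NRF1-ΔE7 than in the NRF1-FL line under siNRF1, beside 3226 of all genes. NRF1 in the NRF1-FL line was then at -0.051 with siNRF1 over siNT. With no filter on low counts 1 cytosolic member was higher between the isoform lines under siNT, beside 1210 of the 33501 genes then tested. The cause was not tested. On leaving out 1 library at a time, mitochondrial members higher between the isoform lines numbered 0 to 1 under siNRF1 (0 without siNRF1+NRF1-FL replicate 2 or siNRF1+NRF1-ΔE7 replicate 3). Under siNT the members called numbered 5 to 8, cytosolic members higher 1 to 2, mitochondrial members lower 1 to 3 (1 without siNT+NRF1-FL replicate 3 or siNT+NRF1-ΔE7 replicate 3) and mitochondrial members higher 0 to 1 (1 without siNT+NRF1-ΔE7 replicate 3). The members with an interaction of NRF1-ΔE7 against no transgene numbered 1 to 3 (1 without siNRF1 replicate 1 or siNT replicate 3), and those called between the NRF1-FL line and cells without a transgene under siNT 1 to 3 (1 without siNT replicate 3 or siNT+NRF1-FL replicate 2). Among the members called and the uncalled ones given above, upper-quartile scaling turned the sign of HARS (0.0447 in the NRF1-ΔE7 line, 0.00304 in the NRF1-FL line and 0.0202 without a transgene), DARS (0.0608 with NRF1-ΔE7 and 0.0678 with NRF1-FL), KARS (0.0200 with NRF1-FL) and GARS (0.0283 with NRF1-ΔE7). All of these were negative with TMM scaling, where KARS and GARS were called lower, as was HARS in the NRF1-FL line and without a transgene. None was called under upper-quartile scaling. DARS in the NRF1-FL line ran from -0.0412 to 0.00997 on leaving out 1 library, and was above 0 without siNT+NRF1-FL replicate 2. Changes near 0.1 on the log2 scale are at the limit of what the scaling can settle.

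Over 45 same-numbered pairs of samples the correlation of deviations from the group means ran from -0.20 to 0.25 (median 0.049) and was over 0.1 in 15, against -0.38 to 0.28 (median -0.028) and 15 of 90 for pairs of other numbers. The rule asked for over 0.1 in every pair, so the numbers were not taken to pair the samples. Same-numbered pairs were over 0.1 more often, and a rule this strict cannot show that samples are unpaired. Deviations within a group offset each other, so the sets of pairs are not independent. With the replicate number as a block, siNRF1 gave 35 called members in each transgene line and 34 without a transgene, 17 between the isoform lines under siNRF1 and 8 under siNT, and no count moved by over 1.5 times.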
